A study of Mus musculus with 11 samples.

Results

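The late phase of beige adipogenesis was examined in im-scWAT cells, preadipocytes of mouse inguinal subcutaneous white fat that had been immortalized with SV40 large T antigen, by comparing RNA-seq of the culture at day 8 with that of the culture at day 4, both differentiated with rosiglitazone (ROS), a synthetic ligand of PPARγ. This pair made up 2 of the 11 RNA-seq samples of the series. Both cultures were untransduced cells of 1 line and had been given induction medium holding indomethacin, dexamethasone, IBMX, insulin, T3 and 0.5 μM ROS at day 0, then insulin, T3 and ROS from day 2. The labels state that ROS was left out from day 7, whereas the methods of the study describe ROS up to day 8, so whether the day 8 cells were in ROS on their last day cannot be told from the sources. Each day was represented by 1 sample, and no p-value can be given for a gene from these samples alone. A pair of preadipocyte cultures taken at day 0, before any treatment differed, and a course of the same days in which ROS was never given (1 sample per day) were used beside it. A pair of day 8 cultures with ROS, WT A and WT B, was also used; these cells differ from the untransduced ones, since they had been infected with retroviruses for an shRNA against mouse Jmjd1a and for wild-type human JMJD1A (WT-hJMJD1A).

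Expression was given as FPKM, in which mapped bases are scaled to the exon length of a transcript and to the depth of the library, so that levels can be set side by side across genes. The libraries held 5.06 Gb (day 4) and 5.08 Gb (day 8) of mapped bases with ROS, and from 3.10 to 4.66 Gb in the other samples used. Of 29955 gene symbols with a sense transcript, 12241 reached an FPKM of 1 at day 4 or day 8 with ROS, and these make up the comparison, 11148 of them coding. The minimum had 150 genes just above it, with their higher FPKM from 1 to under 1.1, and 144 just below it, from 0.9 to under 1. Log2 ratios were taken on log2(FPKM + 0.1), which understates the change of low genes, and a gene is called higher or lower, or is said to have risen or fallen, at a 2-fold ratio or more.

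Beige adipocytes are fat cells that arise within white fat depots and, like brown adipocytes, hold many mitochondria and can burn fuel as heat. Uncoupling protein 1 (Ucp1) lets protons flow back across the inner mitochondrial membrane without making ATP, and the fatty acids released from lipid droplets are both its activators and its fuel. PPARγ drives the general programme of fat cell differentiation, and its sustained activation by ROS in white preadipocytes is a standard way to obtain beige cells in culture.

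The general adipocyte programme was already in place at day 4, and the 3 thermogenic genes Cidea, Cox8b and Ucp1 had the highest ratios of day 8 over day 4. Cidea, a lipid droplet protein abundant in brown and beige fat, was at an FPKM of 0.118 at day 4 and 40.8 at day 8. Cox8b, a subunit of cytochrome c oxidase, was at 1.24 and 116.9, and Ucp1 was at 0.0360 and 9.90. In contrast, Fabp4, the fatty acid-binding protein of adipocytes, was at 29590 and 31402, and Adipoq, which encodes adiponectin, at 1126 and 1291. Of the genes compared, 486 (3.97%) were higher at day 8 and 485 (3.96%) were lower. Among them 101 of the higher and 38 of the lower genes differed by at least 4-fold, and 35 and 5 by at least 8-fold.

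**Figure D1:**
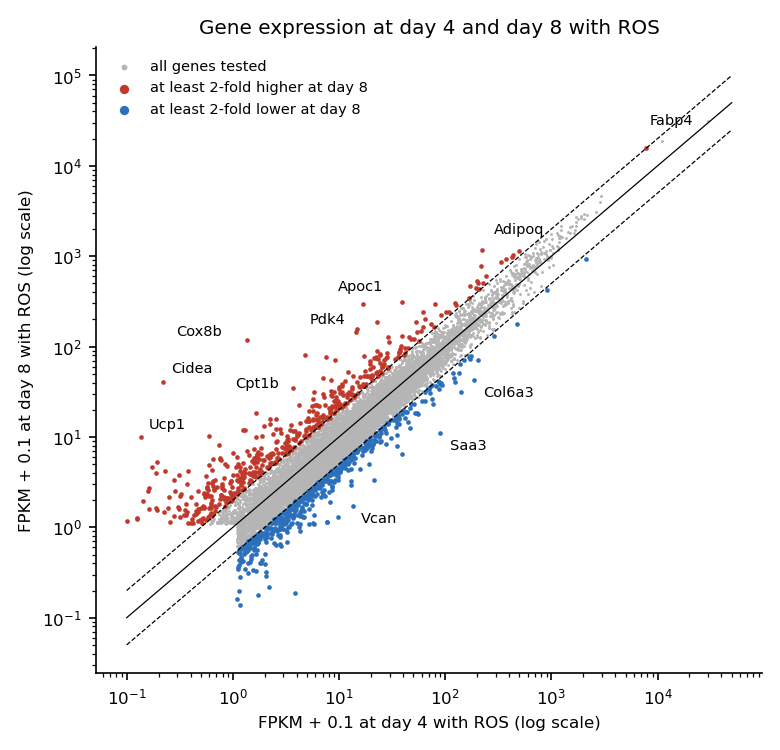
FPKM + 0.1 of the 12241 genes at day 4 (horizontal axis) and day 8 (vertical axis) with ROS, both on log scales, 1 sample each; the 486 genes at least 2-fold higher at day 8 are red, the 485 at least 2-fold lower are blue, and the solid and dashed lines mark equal levels and a 2-fold ratio. Ucp1, Cidea and Cox8b lie farthest above the line among the named genes, while Fabp4 and Adipoq lie close to it.

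How large a ratio must be to stand out from the spread between cultures depends on the cultures used to measure that spread. The pair at day 0 was 2-fold apart, in either direction, in 67 of 12009 genes (0.558%), with an SD of the log2 ratio over genes of 0.24. The SD was 0.62 from day 4 to day 8 with ROS. WT A and WT B, both at day 8 with ROS, were 2-fold apart in 2391 of 12801 genes (18.7%), with an SD of 0.94, more than the 971 genes (7.93%) that were 2-fold apart between day 8 and day 4. A 2-fold ratio was therefore rare between the day 0 samples but not between these transduced adipocyte samples, and values of WT A and WT B are given beside the main genes. When the day 0 pair supplied the spread in limma, with 1 residual degree of freedom, 0 of 12241 genes (0%) passed an adjusted p of 0.05, the smallest adjusted p was 0.0591, and 4175 genes (34.1%) had an unadjusted p under 0.05.

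**Figure D2:**
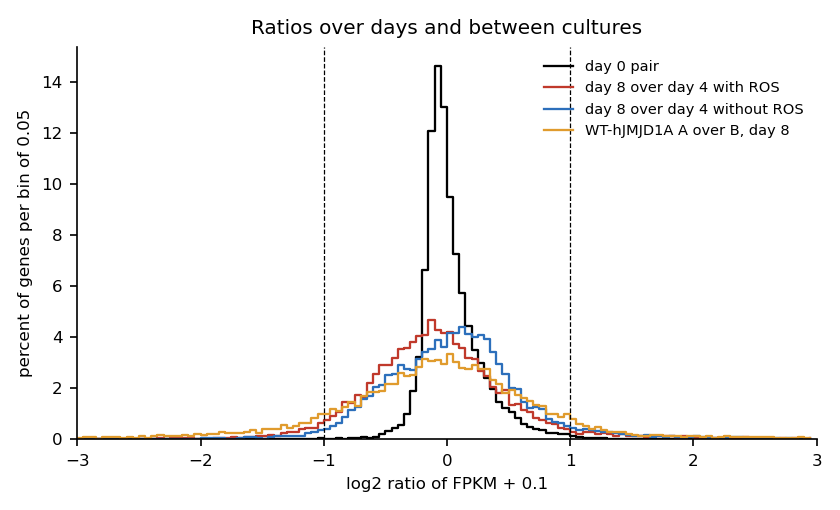
Share of genes (percent per bin of 0.05) by log2 ratio of FPKM + 0.1, for the day 0 pair (black), day 8 over day 4 with ROS (red) and without ROS (blue), and WT A over WT B at day 8 (orange), with dashed lines at a 2-fold ratio. The day 0 pair is the narrowest (SD 0.24) and the WT pair the widest (SD 0.94), and the ratios of day 8 over day 4 with ROS lie between them (SD 0.62).

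The median log2 ratio over all genes was -0.10, and it moved with transcript length. Over the 3065 genes with the shortest exon length (up to 1.63 kb) the median was 0.09, with 197 genes higher and 79 lower. Over the 3060 genes with the longest (from 3.97 kb) it was -0.31, with 62 higher and 176 lower. The same order was seen without ROS, from 0.26 to -0.26, and the day 0 pair went the other way, from -0.08 to 0.07. Genes that were higher had a median exon length of 1.86 kb, against 3.12 kb for the lower genes and 2.62 kb for all genes. With ratios centred on genes of like exon length, 550 genes were higher and 351 lower (61.0% of calls higher), and with ratios centred on the median of all genes, with no term for length, 595 and 352 (62.8%), against 50.1% without centring. Values from the length centring stand beside the respiratory chain, the matrix, and the cholesterol, cell cycle and chromatin lists. The part of transcript length in the other results was not tested.

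Among the genes that rose, several encode mitochondrial proteins, such as Ucp1, the complex IV subunits Cox8b and Cox7a1, and Chchd10, a small protein of the intermembrane space. Their promoters are printed from RefSeq (build GRCm38.p6), to show the sequence at the start of genes that rose late, as 300 bases from 250 before to 50 after the transcription start, in the direction of transcription. The windows lie at chr8:83290098-83290397 on the plus strand (Ucp1), chr10:75932880-75933179 plus (Chchd10), chr7:140900397-140900696 minus (Cox8b) and chr7:30183921-30184220 plus (Cox7a1). Capitals mark AGGTCA, the hexamer that nuclear receptors such as PPARγ bind in pairs, searched on both strands.
Ucp1: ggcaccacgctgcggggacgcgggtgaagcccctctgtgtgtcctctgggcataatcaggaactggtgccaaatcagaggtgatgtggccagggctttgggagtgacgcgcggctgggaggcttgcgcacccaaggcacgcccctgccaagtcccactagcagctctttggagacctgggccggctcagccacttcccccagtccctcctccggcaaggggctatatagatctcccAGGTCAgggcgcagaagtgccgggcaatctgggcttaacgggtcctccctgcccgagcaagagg
Chchd10: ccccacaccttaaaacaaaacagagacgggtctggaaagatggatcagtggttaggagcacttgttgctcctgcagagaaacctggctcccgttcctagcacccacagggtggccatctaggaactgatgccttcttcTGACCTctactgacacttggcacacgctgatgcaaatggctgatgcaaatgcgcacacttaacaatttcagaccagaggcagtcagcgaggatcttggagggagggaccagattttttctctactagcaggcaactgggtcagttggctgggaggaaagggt
Cox8b: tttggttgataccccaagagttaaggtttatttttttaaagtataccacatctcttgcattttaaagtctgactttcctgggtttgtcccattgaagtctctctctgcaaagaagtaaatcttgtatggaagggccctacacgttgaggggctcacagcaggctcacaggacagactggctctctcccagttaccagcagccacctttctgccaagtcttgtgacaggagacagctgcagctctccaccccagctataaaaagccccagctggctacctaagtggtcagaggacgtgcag
Cox7a1: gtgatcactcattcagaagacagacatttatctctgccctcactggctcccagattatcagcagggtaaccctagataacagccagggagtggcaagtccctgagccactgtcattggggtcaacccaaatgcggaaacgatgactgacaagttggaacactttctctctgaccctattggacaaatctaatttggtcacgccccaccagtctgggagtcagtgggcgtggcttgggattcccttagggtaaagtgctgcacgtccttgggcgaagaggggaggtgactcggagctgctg
The hexamer was found once in the windows of Ucp1 and Chchd10 and not in those of Cox8b and Cox7a1. Among 22862 genes with 1 promoter in the RefSeq table, 3647 (16.0%) held it. The table had a promoter for only 283 of the 486 higher genes (58.2%), under the 80% needed for a count over the set, so no share is given for them.

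Thermogenic and beige genes had the highest median of the 24 lists with at least 5 members that passed. The markers of other cell types, with 4 that passed, were left out by that cut and had a median of 1.46. The thermogenic list held 46 genes, of which 33 passed the FPKM minimum. Of these, 20 were higher at day 8, 2 were lower, and the median log2 ratio was 1.38, against -0.10 over all genes. Of the 33, 8 had an FPKM under 1 at day 4 and passed through day 8 alone, so their ratio had to be above 1. Among the other 25, 12 were higher and 2 lower, with a median of 0.82. The list was drawn up with earlier results of these data known, so this count describes the list and is not independent evidence of its direction. In the course without ROS the median of the same genes was 0.45, with 9 higher and 3 lower.

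Of the genes for uncoupling and respiration, Ucp1 and Cox8b started from almost nothing, while Cox7a1 was already expressed at day 0. Ucp1 (mm9, chromosome 8, 85814247 to 85822355, plus strand) had an FPKM of 0 and 0.0261 in the day 0 pair, 0.0360 (day 4) and 9.90 (day 8) with ROS and 0 and 0.0970 at days 4 and 8 without ROS. It was at 12.1 in WT A and 0.724 in WT B. Of the samples used here, only those of day 8 with ROS were thus above an FPKM of 0.1, and they differed widely among themselves. The day 4 value rests on 299 mapped bases, about 3 reads of 100 bases, and the ratio of 275 has a 95% counting interval from 93.7 to 1342, which covers counting error only. Cox8b (chromosome 7, 148084841 to 148086345) was at 0 in both day 0 samples and rose by 6.44 on the log2 scale with ROS, and also without ROS, from 1.58 to 40.3. It was at 74.6 and 13.5 in WT A and WT B. Cox7a1 (chromosome 7, 30969190 to 30971049), a further complex IV subunit of muscle and brown fat, was at 5.45 and 7.49 at day 0, at 14.7 and 156 at days 4 and 8 with ROS and at 10.5 and 42.8 without it. Both subunits therefore rose in both courses of untransduced cells, and were higher at day 8 with ROS than without. WT B, also with ROS, had Cox8b at 13.5, under the 40.3 of the untransduced day 8 sample without ROS. Dio2, the deiodinase that activates thyroid hormone, did not pass the minimum, with 0 at day 4 and 0.00670 at day 8.

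Of 7 genes for the handling of lipid in thermogenic cells that passed, 6 were higher at day 8 with ROS and 1 without, a difference that was not tested. Cidea (chromosome 18, 67503218 to 67527448) rose from 0.118 to 40.8 with ROS and from 0.110 to 1.34 without it, and was at 33.2 in WT A and 7.03 in WT B. Its day 4 value rests on 695 bases, and the ratio of 346 has a counting interval from 167 to 865. Cpt1b (chromosome 15, 89246836 to 89256293), the muscle and brown fat form of the enzyme that admits long-chain fatty acids to mitochondria, went from 3.61 to 34.4 with ROS and from 1.91 to 2.85 without. Plin5, which ties lipid droplets to mitochondria, went from 5.73 to 31.4 and from 1.90 to 2.66. Elovl3, an elongase of very-long-chain fatty acids induced by cold in brown fat, went from 12.2 to 52.3 with ROS and had a log2 ratio of -0.32 without. In WT A these 3 genes were at 76.4, 58.8 and 70.4, above the untransduced day 8 sample, and in WT B at 7.01, 11.9 and 2.57, below it. Acot2, a mitochondrial thioesterase, and Pank1, which makes the precursor of coenzyme A, rose by 1.38 and 1.41 on the log2 scale. Acot2 has close relatives, among them Acot1, and how reads shared by such copies were placed is not given in the sources used here.

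Transcription regulators of the thermogenic programme did not move together. Ppara, the PPAR of oxidative tissues, rose from 1.57 to 9.77, Ppargc1a, the coactivator PGC1α, from 2.18 to 5.09 (a log2 ratio of 0.94 with a pseudocount of 1), Tbx1 from 0.844 to 3.01 and Cited1 from 0.524 to 1.33. Esrra, an orphan receptor of mitochondrial genes, was at 26.9 and 46.5, short of a 2-fold ratio. Ebf2, Ppargc1b, Hoxc9 and Hoxc10 had log2 ratios between -0.16 and 0.00. Lhx8 and Tbx15, homeobox and T-box factors, fell from 4.54 to 1.43 and from 19.5 to 9.24; Tbx15 came to a log2 ratio of -0.96 when ratios were centred on the median of all genes. Prdm16, the zinc finger partner of the beige programme, was under the minimum at 0.0464 and 0.143, and Zic1, a marker of brown precursors, was at 0 in both samples.

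Among receptors and channels, Kcnk3, a potassium channel of brown fat, rose from 17.6 to 53.0, and Otop1, a proton channel, from 0.0249 to 1.13. The Otop1 ratio of 45.6 rests on 396 bases at day 4 (counting interval 17.4 to 171), and its day 8 level is close to the minimum. Adrb3, the β3-adrenergic receptor, was at 2.78 and 4.25 and did not reach a 2-fold ratio. Chrna2, a nicotinic acetylcholine receptor subunit, rose from 0.855 to 3.12 with ROS, while without ROS it was at 0.561 and 0.129. Of secreted factors, Nrg4 rose from 3.20 to 7.67, and Fgf21 was at 6.61 and 11.8, a log2 ratio of 0.82. Kng2, a kininogen, rose from 0.367 to 2.40, and Cyp2b10, a cytochrome P450, from 0.210 to 3.66 (counting interval of the ratio from 11.1 to 28.9). Both were 2-fold or more apart without ROS as well, in the same direction. Sirt3, a mitochondrial deacetylase, rose in both courses, from 6.11 to 18.3 with ROS and from 4.52 to 10.9 without.

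**Figure D3:**
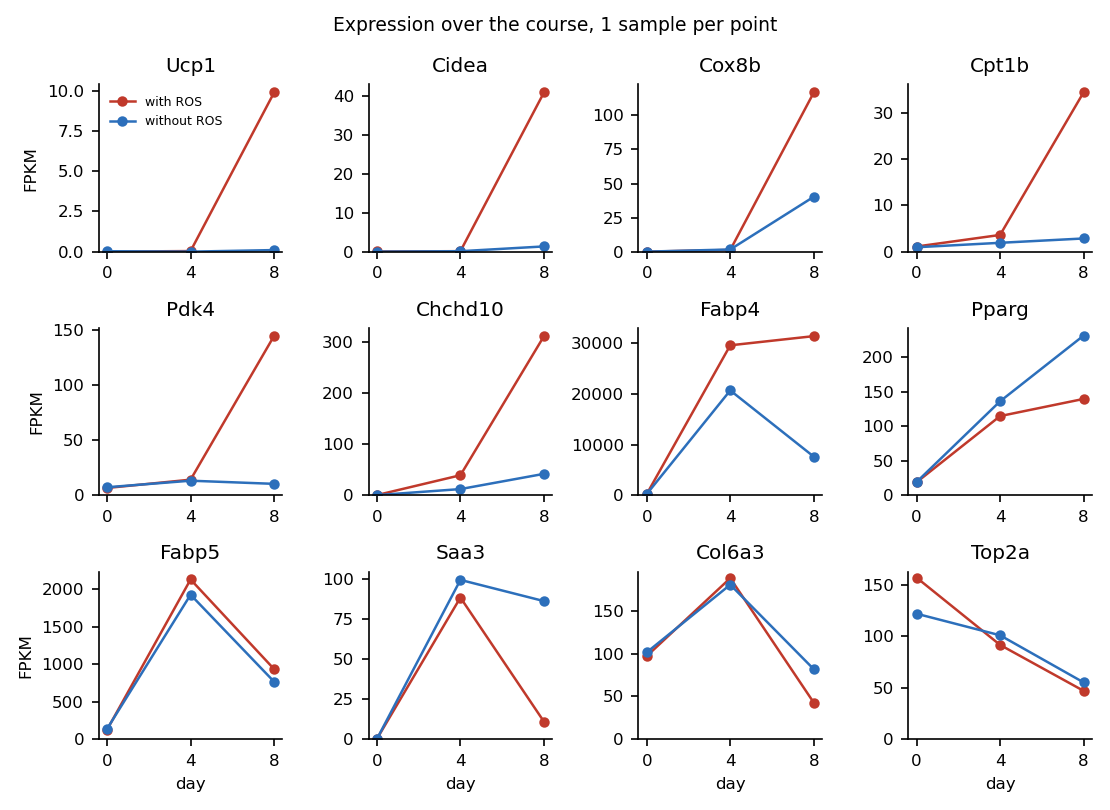
FPKM of 12 genes (vertical axes, each from 0) at days 0, 4 and 8 (horizontal axes) with ROS (red) and without ROS (blue), 1 sample per point, so no error is shown. Ucp1, Cidea, Cpt1b and Pdk4 are far higher at day 8 with ROS (9.90, 40.8, 34.4 and 145) than in the other samples drawn, Cox8b and Chchd10 rise in both courses, and Fabp5 and Col6a3 peak at day 4 in both.

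The 15 genes with the highest ratio among the 6559 genes that reached an FPKM of 10 had log2 ratios from 2.97 to 7.55. Beside Cidea, Cox8b, Cox7a1 and Cpt1b, they comprised Apoc1, Aspg, Rbp7, Cyp2e1, Pdk4, Acaa1b, Syn2, Dusp3, Tmem140, Chchd10 and Acer2. Apoc1, an apolipoprotein, was at 16.6 (day 4) and 299 (day 8) with ROS and at 21.3 and 222 without. Syn2, best known as a synaptic vesicle protein, rose from 1.15 to 11.7 with ROS, and its log2 ratio was 3.24 with ROS and 4.02 without. Pdk4, the kinase that shuts pyruvate out of the TCA cycle, and Acaa1b, a thiolase of peroxisomes, rose with ROS alone. Pdk4 was at 14.2 and 145 with ROS and at 13.3 and 10.4 without, and Acaa1b at 7.43 and 75.9 against 5.59 and 5.31. Rbp7, a retinol-binding protein, went from 4.72 to 81.0 with ROS and from 0.920 to 1.62 without, and was at 9.06 and 9.69 in WT A and WT B, far under the untransduced sample of the same day. Cyp2e1, a cytochrome P450, was at 1.54 and 18.2 with ROS, at 19.9 in WT A and at 0.233 in WT B. Chchd10 was at 39.3 and 310 with ROS, at 12.2 and 42.0 without, and at 446 and 406 in the WT pair. The 3 day 8 cultures with ROS that were used here were thus above the day 4 level. Dusp3, a phosphatase, was at 6.03 and 6.25 at day 0, dipped to 1.20 at day 4 and was at 11.8 at day 8.

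PPAR target genes had a median next to that of the thermogenic list among these 24 lists. Of 31 genes 26 passed, 13 were higher, 1 was lower and the median log2 ratio was 1.05. Without ROS the median of the same genes was -0.18, with 1 higher and 2 lower. Of the 26, 4 passed through day 8 alone, so their ratio with ROS had to be above 1. Among the other 22, 9 were higher and 1 lower with ROS, with a median of 0.76. Several members for lipid storage and uptake stayed within 2-fold. Plin1 was at 223 and 231, Plin4 at 167 and 177, and Lpl, the lipoprotein lipase, at 1032 and 807. Others rose, among them the droplet proteins Cidea and Plin2. Slc27a1, a fatty acid transporter, went from 8.92 to 24.9, Aqp7, the glycerol channel, from 10.6 to 31.5, Angptl4, an inhibitor of lipoprotein lipase, from 225 to 508, and Plin2 from 437 to 1022. Pck1, which feeds glycerol synthesis, rose from 0.150 to 2.04, and Ucp3 from 0.0241 to 1.17, with counting intervals of the ratio from 8.61 to 22.6 and from 16.3 to 241. Pck1 was at 0.196 and 0.306 without ROS, and Ucp3 at 0.0263 and 0.0186. Acsl1, the main acyl-CoA synthetase of fat, fell from 902 to 423 with ROS and from 679 to 175 without, and its log2 ratio of -1.09 came to -0.99 when centred on the median of all genes.

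**Figure D4:**
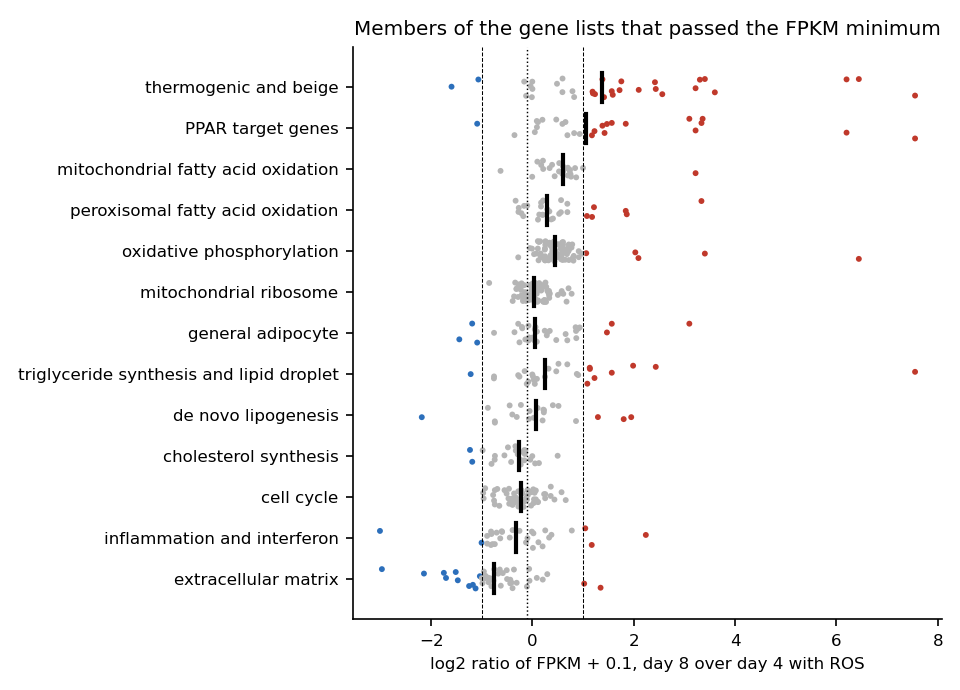
Log2 ratio of FPKM + 0.1, day 8 over day 4 with ROS (horizontal axis), for each member of 13 gene lists that passed the minimum; red points are at least 2-fold higher, blue points at least 2-fold lower, black bars are list medians, the dotted line is the median of all genes and the dashed lines a 2-fold ratio. The medians run from 1.38 for thermogenic and beige genes to -0.76 for the extracellular matrix.

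Genes of fatty acid oxidation in mitochondria had small ratios, nearly all in 1 direction. Of 25 that passed, 23 had a ratio above 1, with a median log2 ratio of 0.60, but only Cpt1b passed 2-fold. Hadhb, the β subunit of the trifunctional protein, was at 183 and 366, just under 2-fold. Acadm, Acadl and Acadvl, the acyl-CoA dehydrogenases for medium, long and very long chains, were at 461 and 701, at 270 and 421, and at 336 and 455. Without ROS the median was 0.00 and 13 genes had a ratio above 1. The liver form Cpt1a, at 14.8 and 16.7, was nearly level, so Cpt1b was below Cpt1a at day 4 and above it at day 8.

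Genes of peroxisomal oxidation differed among themselves. Of 29 genes, 6 were higher and 0 lower: Acaa1b, Ehhadh (6.12 and 22.2), Acox2 (1.07 and 4.14), Ech1 (125 and 291), Phyh (17.1 and 36.2) and the transporter Abcd2 (1.01 and 2.42). Acaa1a, the close relative of Acaa1b, was at 84.5 and 92.7, and Hsd17b4 at 89.9 and 103. The list median was 0.29 with ROS and -0.13 without.

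The respiratory chain had ratios above 1 in nearly all of its subunits, few of them past 2-fold. Of 82 genes that passed, 79 had a ratio above 1, and the median was 0.45, or 0.37 when centred on genes of like exon length, as these transcripts are short (median 0.669 kb). Those past 2-fold numbered 5, the tissue-specific complex IV subunits Cox8b, Cox7a1, Cox6a2 (6.99 to 30.1) and Cox6b2 (0.466 to 2.21), and Ndufa3 of complex I (209 to 436), whose log2 ratio of 1.06 came to 0.84 with that centring. Other subunits stayed within 2-fold. Cox4i1 was at 1238 and 2132, and Atp5b of ATP synthase at 2159 and 2855. By complex, the medians were 0.44 for complex I, 0.46 for complex II, 0.45 for complex III, 0.66 for complex IV with cytochrome c and 0.40 for ATP synthase. Without ROS the median of the list was 0.21. The 76 mitochondrial ribosome genes stood apart, with a median of 0.04, 44 above and 32 below a ratio of 1, and none past 2-fold. All 10 rows of the mitochondrial chromosome, chosen after their values were seen, had a ratio above 1 with ROS, with log2 ratios from 0.50 to 1.36 and 2 past 2-fold. The highest, 1.36, was that of GU332589, which was near the minimum at an FPKM of 0.580 and 1.64 and passed through day 8 alone. All 10 also lay on 1 side between the day 0 samples, with log2 ratios of ROS plus over minus from 0.14 to 0.49. Among them, mt-Nd4 was at 1720 and 2725, and mitochondrially encoded Cox2 at 7725 and 15720. Without ROS, 7 of these 10 had a ratio under 1 and none reached 2-fold.

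Entry of pyruvate and the TCA cycle changed at single genes. Of 31 genes, Pdk4 and Pdk1 were higher and Pdk3 was lower, so 3 of the 4 kinases of pyruvate dehydrogenase passed 2-fold, and Pdk2 was at 36.6 and 72.3, just under it. No enzyme of the cycle itself passed 2-fold, and the median of its 18 genes was 0.31. Bckdha, a subunit of the branched-chain keto acid dehydrogenase, rose from 64.3 to 201, while Bcat1, the cytosolic transaminase, fell from 1.36 to 0.316. In glucose use, 5 of 37 genes were higher and 1 lower. Gys2, the liver form of glycogen synthase, rose from 1.16 to 3.99, Ppp1r3b and Ppp1r3c, which target a phosphatase to glycogen, from 1.15 to 3.47 and from 8.90 to 18.2, Aldoc from 1.19 to 3.86 and Ldhb from 26.7 to 64.0. Pik3r1, the regulatory subunit of PI3 kinase, fell from 36.6 to 13.9 with ROS and from 48.3 to 25.0 without.

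The general adipocyte list was level, with 3 of 35 genes higher (Slc27a1, Aqp7 and Pck1), 3 lower (Fabp5, Acsl1 and Mest) and a median of 0.06. Pparg was at 115 and 140, Cebpa at 270 and 281, Lipe, the hormone-sensitive lipase, at 451 and 450, and Slc2a4, the insulin-responsive glucose transporter, at 75.4 and 92.8. Fabp4 took 1.90% of all mapped bases at day 4 and 2.01% at day 8 with ROS, against 1.33% and 0.489% without it. Fabp5 fell from 2129 to 933 with ROS and from 1926 to 765 without. Of 22 adipokines and growth factors 4 were higher and 4 lower, with Angptl4 among the higher. Cfd, which encodes adipsin, rose from 220 to 1182, Sncg from 0.672 to 5.44 and Rbp4 from 3.23 to 8.98, and these 3 rose without ROS as well. Lep was at 0 in both samples with ROS.

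The synthesis of fatty acids went in both directions. Of 22 genes, Scd3 (22.8 to 88.3), Acacb (13.5 to 47.4), the mitochondrial form of acetyl-CoA carboxylase whose product inhibits fatty acid entry, and Mlxipl (6.19 to 15.3), which encodes ChREBP, were higher, and Elovl6 fell from 1.73 to 0.302. Fasn, the fatty acid synthase, was at 495 and 269 and Acaca, the cytosolic carboxylase, at 47.0 and 37.9, neither past 2-fold. In the cholesterol pathway 21 of 24 genes had a ratio under 1, with a median log2 ratio of -0.27, against -0.10 over all genes. Centred on genes of like exon length, the median of the list was -0.18. Dhcr7 (21.4 to 9.05) and Hsd17b7 (9.02 to 3.90) were past 2-fold, and with the length centring Hsd17b7 was at -0.98 on the log2 scale. Of 29 genes of triglyceride synthesis, lipid droplets and lipolysis, 8 were higher and 1 lower. Of the droplet proteins, Plin2, Plin5, Cidea, Cideb and 2310016C08Rik were higher and the other 6 of 11 were within 2-fold, among them Cidec at 1507 and 2087. Mogat1, a monoacylglycerol acyltransferase, rose from 1.63 to 6.74 and Lpin3, a phosphatidate phosphatase, from 2.58 to 5.78, and Aqp7 was the eighth. Agpat9, a glycerol-phosphate acyltransferase, fell from 118 to 50.5.

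The extracellular matrix list had the lowest median of the lists. It had 42 genes that passed, with 10 lower, 2 higher and a median of -0.76, or -0.52 with 7 lower and 1 higher when centred on genes of like exon length (median length 4.51 kb). All 16 collagen genes that passed had a ratio under 1, and 7 were past 2-fold. Col6a3 (chromosome 1, 92672492 to 92708408) was at 97.2 and 102 at day 0, at 189 and 42.7 at days 4 and 8 with ROS, and at 181 and 81.9 without, but WT A and WT B held it at 181 and 149, above the untransduced sample. Col15a1, a basement membrane collagen, was at 0.193 at day 0, 27.7 at day 4 and 8.18 at day 8. Col3a1, Col5a1 and Col6a2 fell from 172 to 72.3, from 24.7 to 8.84 and from 288 to 132, and their log2 ratios lay between -0.93 and -0.99 with the length centring, short of 2-fold. Col5a2 fell from 75.0 to 26.2, Col11a1 from 1.54 to 0.402, Postn, which encodes periostin, from 81.7 to 36.1 and Loxl2, a collagen crosslinking enzyme, from 16.0 to 7.72. Vcan, a large proteoglycan, fell in both courses, from 13.3 to 1.61 with ROS and from 27.4 to 4.58 without. Dcn, a small proteoglycan, and Mmp11 went against the list, from 23.0 to 46.7 and from 4.75 to 12.2; Dcn was just short of 2-fold with a pseudocount of 1. Without ROS the median of the list was 0.00.

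The 15 genes with the lowest ratio at an FPKM of at least 10 had log2 ratios from -1.73 to -3.01. They were Saa3, Vcan, Hopx, Mtap7d2, Car2, Col6a3, Ptn, Hmgn3, Maf, Emb, Plod2, Sned1, Col15a1, Gas1 and AK217856, a short transcript that overlaps Rnf213. Saa3, an acute phase protein, was at 88.6 and 10.9 with ROS and at 99.6 and 86.3 without. It was at 3.02 and 10.9 in the WT pair, so the 3 day 8 cultures with ROS that were used here were low. Car2, a carbonic anhydrase, fell from 141 to 31.7 with ROS and from 169 to 67.6 without. Ptn, a secreted growth factor, was at 90.5 at day 0, 12.8 at day 4 and 2.83 at day 8 with ROS, but WT A had it at 27.8. Hmgn3, a nucleosome-binding protein, and Gas1, a receptor of hedgehog ligands, stood at 62.3 and 100 at day 0, at 34.9 and 35.0 at day 4 and at 7.93 and 10.4 at day 8. Plod2, which hydroxylates collagen, fell from 46.4 to 12.4, and WT B had it at 61.0.

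The summed FPKM of the preadipocyte markers with ROS was 1233 (day 0), 482 (day 4) and 438 (day 8). The sum was 409 in WT A and 1310 in WT B, so it differed widely among these day 8 samples with ROS. Of 24 genes of this list that passed, 2 were higher and 2 lower, with a median of -0.29 with ROS and 0.24 without. Of the 24, 3 passed through day 4 alone, so their ratio had to be under 1. Among the other 21, 2 were higher and 0 lower, with a median of 0.01 with ROS. Cd34 was at 32.3, 8.84 and 4.52 at days 0, 4 and 8 with ROS, and Ly6a, which encodes Sca-1, at 424, 141 and 108, while without ROS they were at 19.8 and 495 at day 8. Cd24a fell from 1.29 to 0.215 (counting interval of the ratio from 0.0975 to 0.268) and Zfp521 from 1.71 to 0.771, whereas Wisp2 and Klf2 rose from 3.07 to 7.35 and from 1.53 to 4.04. Of growth factors, Angpt1, Fgf7, Fgf10 and Igfbp5 fell, the last from 1.61 to 0.0765.

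Proliferation genes were still expressed at both days. None of the 54 cell cycle genes that passed reached a 2-fold ratio, but 24 of the 25 mitotic genes had a ratio under 1, with a median of -0.43, while the 20 genes of DNA replication had a median of 0.04. Over the 54 genes the median was -0.22, against -0.10 over all genes. The median of the 54 came to -0.10 when centred on genes of like exon length. Top2a was at 157 at day 0, 91.7 (day 4) and 46.9 (day 8) with ROS and Pcna at 284, 273 and 320. The inflammatory list had 3 higher and 2 lower genes of 30 with a median of -0.32, against 13 higher and 0 lower without ROS with a median of 0.74. Its 13 interferon response genes had a median of -0.01 with ROS and 1.18 without. Isg15 was at 273 and 158 with ROS and at 284 and 645 without, and Ifit3 at 54.8 and 54.4 against 71.4 and 217. C4b, a complement component, rose in both courses, from 5.54 to 26.5 with ROS. Orm1 and Cfb rose too, and the chemokine Ccl7 fell from 30.9 to 15.3, a ratio that was short of 2-fold with other scalings. Whether the courses differ could not be tested, as each day of each course had 1 sample.

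**Figure D5:**
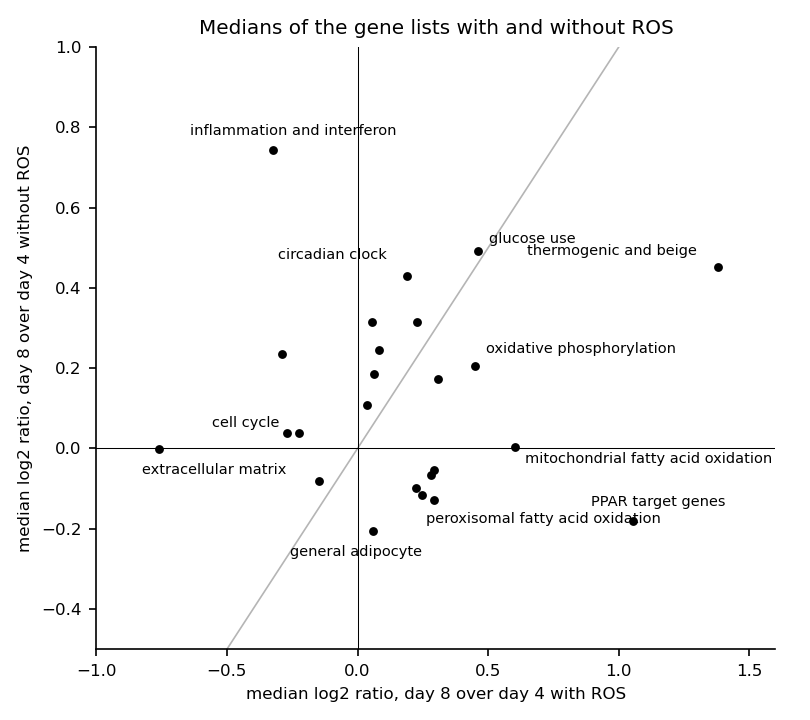
Median log2 ratio of day 8 over day 4 with ROS (horizontal axis) and without ROS (vertical axis) for the 24 gene lists with at least 5 members that passed; the grey line marks equal medians. The PPAR target genes (1.05 and -0.18) and the mitochondrial fatty acid oxidation genes (0.60 and 0.00) lie below the line, and the inflammation and interferon list (-0.32 and 0.74) above it.

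Many of the higher genes rose without ROS too. The courses share no sample. Without ROS, 636 of 12607 genes were higher at day 8 (5.04%) and 244 were lower (1.94%). The genes higher in both courses numbered 188, which is 38.7% of those with ROS and 29.6% of those without, and the genes lower in both numbered 83, or 17.1% and 34.0%. Over 12105 genes in both comparisons Pearson's r of the log2 ratios was 0.63, a description across genes that share exon length and other properties and are not independent. The 486 higher genes had a median log2 ratio of 1.45 with ROS, which chose them, and 0.87 without. Of these genes 248 (51.0%) had an FPKM under 1 in both day 0 samples, against 60 of the 485 lower genes (12.4%) and 7.39% of all genes compared. The FPKM minimum bears on this contrast. Of the higher genes, 137 were under an FPKM of 1 at day 4 and passed through day 8 alone, against 0 of the lower genes. Of the lower genes, 146 passed through day 4 alone.

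JMJD1A, the H3K9 demethylase whose phosphorylation the study examined, is encoded by Kdm3a, which was at 23.2 at day 0, 15.1 (day 4) and 21.1 (day 8) with ROS and at 15.8 and 16.0 at days 4 and 8 without. Of 21 genes for H3K9 enzymes and partners of JMJD1A, 1 was higher (Ppargc1a) and 1 lower (Suv39h2, 1.26 to 0.452), with a median of -0.15, or 0.11 with the length centring.

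Most markers of other cell types were under the minimum. Of 22 such genes in the files, 4 passed the minimum at day 4 or day 8 with ROS: Cd68 (1.21 and 4.30), Des (3.60 and 6.94), Mb (0.539 and 4.26) and Acta1 (0.508 and 1.27). The summed FPKM of all 22 was 6.50 (day 4) and 17.8 (day 8) with ROS 6.47 and 19.99 at days 4 and 8 without, and 31.6 and 55.7 in WT A and WT B. With ROS 3 of the 4 that passed were higher (median log2 ratio 1.46), and without ROS 4 of 4 (median 2.12). Of the 4, 2 (Mb and Acta1) passed through day 8 alone, so their ratio with ROS had to be above 1. Among the other 2, 1 was higher with ROS, with a median of 1.34. Their part in the other results was not tested. The defining leukocyte genes Ptprc, Itgam and Emr1 and the muscle regulators Myod1, Myog and Pax7 were at 0 in both samples, and the 5 endothelial genes summed to 0.409 and 0.510. The adipocyte markers Adipoq, Fabp4, Plin1, Cidec, Lipe and Slc2a4 were high at both days. Of the beige markers, Ucp1, Cidea and Cox8b were near the floor at day 4, but Elovl3 was already expressed at that day. In a bulk culture, a larger share of differentiated cells and more RNA per cell cannot be told apart.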

How the data were processed

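RNA was extracted with ISOGEN and libraries were made with TruSeq. The authors aligned reads to UCSC transcripts and mm9 with Burrows-Wheeler aligner, realigned them locally and deposited strand-specific FPKM per transcript; replicates were not pooled. A deposited column of mapped bases gives the signal (coverage) behind each FPKM. The files hold no read counts, so no count test was used. Samples were grouped by their labels, which do not say whether the paired samples came from separate cultures, so spreads may be technical. Sense rows with the files' representative transcript were used, 1 per symbol, at an FPKM of at least 1 at day 4 or day 8; starts are counted from 1. Ratios were taken on log2(FPKM + 0.1) and called at 2-fold. limma (3.58.1, R 4.3.3; empirical Bayes with trend, Benjamini-Hochberg) took its spread from the day 0 pair, which assumes that differentiated cultures vary like preadipocytes, and was tested on simulated data. Counting intervals (exact binomial, 95%) took 100 bases as a read and cover counting error only. The named genes are the 15 highest and 15 lowest ratios at an FPKM of at least 10, list members, and genes the study names for its RNA-seq. Members and lists were chosen with earlier results of these data known. Alternatives changed the pseudocount, minimum, transcript, scaling and limma fit. Python 3.11.15, pandas 2.3.3 and matplotlib 3.10.9 were used. The share of promoters with a motif was void, since under 80% of the genes had a promoter in the table. A member of the clock list is not reported here.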

Additional observations from a re-analysis of the deposited data

Results flagged for a closer look

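Chrna2, a subunit of a nicotinic acetylcholine receptor, was more than 2-fold apart in opposite directions in the courses with and without ROS. Its log2 ratio of day 8 over day 4 was 1.75 with ROS (FPKM of 0.855 and 3.12) and -1.53 without (0.561 and 0.129). It was at 5.68 in WT A and 1.38 in WT B. Each day of each course had 1 sample, all levels are low, and the difference between the courses was not tested.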

How the results depend on the processing

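No paired analysis was possible because the day 4 and day 8 samples carry no replicate numbers and each is a single sample. With a minimum FPKM of 0.1, or none, 777 genes were higher and 781 lower at day 8, and with a minimum of 10 the counts were 235 and 156. A pseudocount of 1 gave 350 higher and 209 lower genes (62.6% of calls higher, against 50.1% as reported), centring on the median of all genes gave 595 and 352 (62.8%), and centring on genes of like exon length, added after the data were seen, gave 550 and 351 (61.0%). Both counts were within 1.5 times those reported with plain ratios, with the transcript of highest mean FPKM, with upper-quartile scaling and with coding transcripts alone. The day 0 pair was 2-fold apart in 9 genes with a pseudocount of 1 and in 324 with a minimum of 0.1. limma called 645 genes with a pseudocount of 1 (414 higher, 231 lower; smallest adjusted p 0.0328) and 0 with a minimum of 0.1, without the trend, or with the WT pair added, when 780 had an unadjusted p under 0.05. The causes were not tested. Of 129 named genes past 2-fold none changed sign under these settings. Centring on the median left Tbx15, Acsl1, Zfp521, Loxl2, Cnn3 and Ccl7 short of 2-fold, and the length centring left all of these but Ccl7 short, as well as Fgf10, Ndufa3, Hsd17b7, Col3a1, Col5a1, Col6a2, Dcn, Vcl and Orm1. A pseudocount of 1 left 26 short, which were Ppargc1a, Cited1, Mest, Fgf7, Fgf10, Cd24a, Klf2, Zfp521, Abcd2, Pdk1, Lpin3, Cideb, 2310016C08Rik, Ppp1r3c, Bcat1, Col11a1, Dcn, Loxl2, Tagln, Ctgf, Egr1, Ccl7, Cfb, Bhlhe41, Suv39h2 and Acta1. The depth, about 5 Gb per sample, limits genes such as Ucp1 at day 4, which rest on few reads, and no ratio has a replicate.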

Other observations

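Clock and hormone-responsive genes were not part of the main account. Among clock genes, Hlf (0.684 and 2.77) and Bhlhe41 (0.374 and 1.07) were higher at day 8 with ROS, and the median log2 ratio of the 19 genes of the list was 0.19. Both were higher without ROS as well, but both passed the minimum through day 8 alone, so their ratio with ROS had to be above 1. Among the other 17 genes of the list the median with ROS was 0.15. Of 21 glucocorticoid and cAMP responsive genes, Mt1 (333 and 854), Lcn2 (11.9 and 29.8), Fosl2 (7.57 and 16.6) and Ppargc1a were higher and Errfi1 (202 and 70.9) was lower, while Fkbp5, a target of dexamethasone, was at 158 and 127. Among 24 antioxidant enzymes only Gpx4, the glutathione peroxidase that acts on membrane lipids, passed 2-fold, at 501 and 1149 with ROS and 422 and 777 without. Of 24 genes of actomyosin and of SRF targets, Tagln, Ctgf and Egr1 were higher and Cnn3, Vcl and Fhl2 lower. Of the 24, 3 passed through day 8 alone and 1 through day 4 alone, which fixed the direction of their ratios. Among the other 20, 1 was higher and 3 lower, with a median of -0.14. Of 5 genes of futile cycling that passed, Ucp3 was higher. Ucp3 passed through day 8 alone, so its ratio had to be above 1, and none of the other 4 reached 2-fold.

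Beside Chrna2, 7 genes were at least 2-fold higher with ROS and 2-fold lower without: Fga, Niacr1, Plbd1, Ces1f, AK219843, St3gal6 and Rnf125. Another 4 went the other way: Terc, Ngfr, Mx1 and Cd248. With Chrna2 counted, these were 8 of the 486 higher and 4 of the 485 lower genes with ROS, among 12241 compared. All were named after their values were seen, and the difference was not tested. Terc was at 0.589 and 0 in the day 0 pair, a log2 ratio of 2.78, against -1.05 with ROS and 1.21 without. Fga (0.245 and 1.27 with ROS) and AK219843 (0 and 1.08) were near the minimum and passed through day 8 alone, as did Chrna2. Niacr1, a receptor for nicotinic acid on adipocytes, was at 3.15 and 7.52 with ROS and at 1.33 and 0.541 without. Cd248, a surface protein of stromal cells, was at 40.1 at day 0, then at 10.9 and 5.09 at days 4 and 8 with ROS and at 16.0 and 37.1 without. Ngfr, a neurotrophin receptor, was at 6.11 and 2.63 with ROS and at 8.05 and 30.4 without.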
